A study of Homo sapiens with 12 samples.

Results

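Aminoacyl-tRNA synthetases are the enzymes that join each amino acid to its own tRNA, and the genes described here are these enzymes together with the scaffold proteins that hold several of them in one complex. They were taken by gene symbol from a list of 39 genes, made up of 20 cytosolic synthetase genes, 16 mitochondrial synthetase genes and 3 scaffold genes. Of these, 33 stood among the 8842 genes listed in the deposited tables, namely 16 cytosolic, 14 mitochondrial and all 3 scaffold genes. AARS, EPRS, IARS, WARS, AARS2 and TARS2 were not analysed here.

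The data were RNA-seq values from cell lines of human liver cancer (HCC), HepG2 and LM3. Each line had been transfected either with an siRNA against the long noncoding RNA FASRL (siFASRL) or with a negative control siRNA (siNC), and RNA was collected 48 h later. There were 3 libraries in each of the 4 groups, 12 in all. The labels number the replicates but do not say whether they came from separate cultures, so p-values measure the spread between these libraries, which may be technical. The level of FASRL itself, which would check the knockdown, was not analysed here.

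A protein-making cell needs charged tRNAs in the cytosol and, separately, inside its mitochondria. Both sets of enzymes are encoded in the nucleus, for most amino acids by separate genes, with the mitochondrial form marked by a 2 at the end of its symbol. GARS and KARS are exceptions, because each gene makes both the cytosolic and the mitochondrial enzyme. Both are counted among the cytosolic genes in all class counts and medians below. Cytosolic phenylalanyl-tRNA synthetase is built from the FARSA and FARSB subunits, whereas its mitochondrial counterpart FARS2 is a single chain. Some cytosolic enzymes (DARS, EPRS, IARS, KARS, LARS, MARS, QARS and RARS) sit in the multisynthetase complex, assembled on AIMP1, AIMP2 and EEF1E1.

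The cell line labels were checked against markers of hepatocytes. In HepG2, the 11 listed of 12 hepatocyte markers summed to 4545 under siNC, with SERPINA1 the most abundant at 1393 and ALB at 815. In LM3, the same 11 markers summed to 17.8, and 9 of them were below 1, among them ALB at 0.36, AFP at 0.29 and APOA1 at 0.16. HNF4A, a hepatocyte transcription factor, was the most abundant of them in LM3 at 14.3. The defining secreted markers were thus near 0 in LM3, and the line is referred to by its label alone. Under siFASRL the marker sum was 2551 in HepG2 and 7.6 in LM3. Of 9 markers of fibroblasts, endothelial cells and leukocytes, 5 were listed, with LYZ highest in HepG2 (82.7 under siNC) and CD68 highest in LM3 (14.89). The part of these marker differences in the results below was not tested.

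All values are the authors' expression values per gene, normalised within each library. Fold changes are differences of mean log2(value + 1) between siFASRL and siNC, fitted with limma over all tested genes of a line, and a gene was called higher or lower at a Benjamini-Hochberg adjusted p under 0.05. The listed genes are a subset of all genes, and how they were chosen is not known. In HepG2 only 5 of 6367 genes with a mean of at least 5 had a log2 ratio between -0.2 and -0.04, which is 0.0785%, whereas in LM3 it was 578 of 5937, or 9.74%. The shares of called genes given below therefore hold for the listed genes only. The HepG2 calls and the differences between the lines come from a list nearly without HepG2 ratios between -0.2 and -0.04.

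In the control libraries, the cytosolic forms were the more abundant class in both lines. The deposited values were taken to be per length, which is not stated, and levels of different genes are set beside each other on that assumption. In HepG2 under siNC, the cytosolic genes had a median level of 54.9, from 11.3 for CARS to 98.6 for TARS, and the mitochondrial genes a median of 12.7, from 3.45 for PARS2 to 80.5 for IARS2. In LM3 the medians were 59.1 and 11.6. IARS2, the mitochondrial isoleucyl-tRNA synthetase, was the most abundant mitochondrial form in both lines. The scaffold genes ranged from 19.4 (AIMP1) to 37.8 (EEF1E1) in HepG2 and from 19.0 (EEF1E1) to 62.8 (AIMP2) in LM3.

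**Figure D1:**
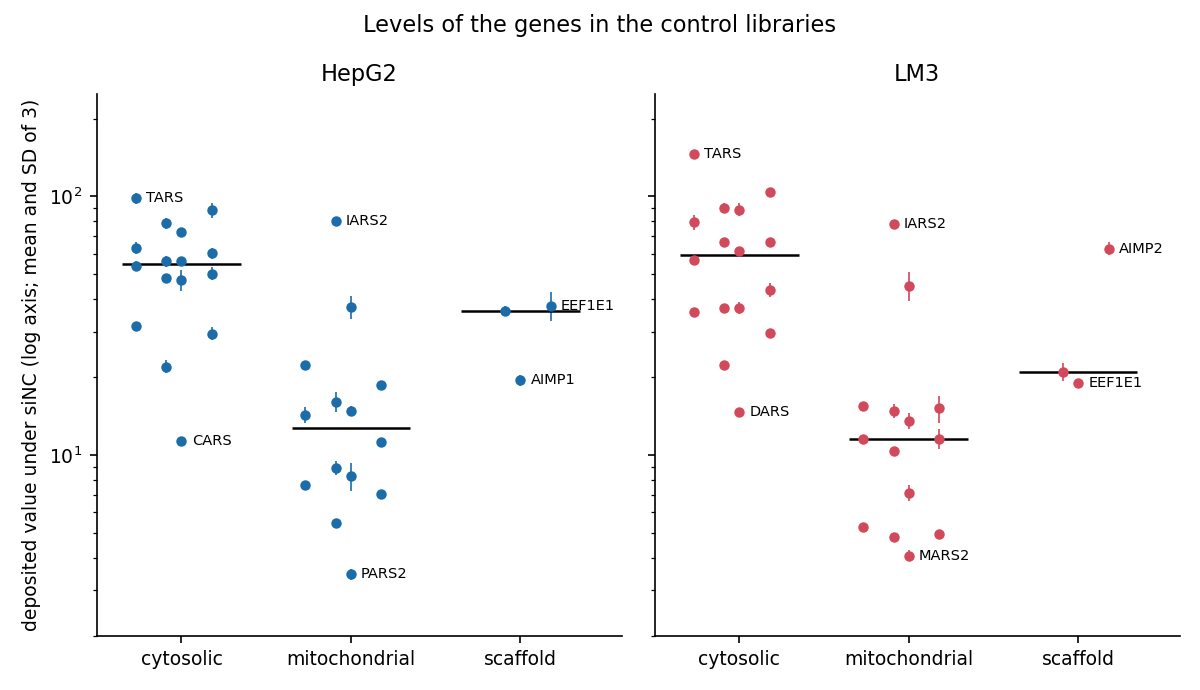
Deposited value of each gene under siNC (mean and SD of 3 libraries, log axis) in HepG2 and LM3, by class, with a line at the class median. The cytosolic medians (54.9 and 59.1) lie above the mitochondrial medians (12.7 and 11.6), with IARS2 standing among the cytosolic genes.

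Between the lines, 13 of the 33 genes were higher in LM3 than in HepG2 under siNC, 11 were lower and 9 were not called, where 80.9% of 8176 tested genes were called. The differences named here were chosen after their values were seen. VARS2 was lower in LM3 by the widest margin (log2 difference -1.75), followed by DARS (-1.05) and EEF1E1 (-0.95), and CARS was higher (0.91).

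The question asked of the knockdown was which synthetase genes changed in each line and whether cytosolic and mitochondrial forms did so alike. In HepG2, 24 of the 33 genes were higher with siFASRL, 6 were lower and 3 were not called. Over all 8144 tested genes of HepG2, 44.8% were called higher and 44.3% lower. Called genes included 13 of 16 cytosolic forms higher and 1 lower, 8 of 14 mitochondrial forms higher and 5 lower, and all 3 scaffold genes higher. In LM3, 17 genes were higher, 8 lower and 8 not called, against 33.9% higher and 43.5% lower of 7483 tested genes. There the cytosolic forms split into 7 higher and 5 lower, the mitochondrial forms into 7 higher and 3 lower, and the scaffold genes were again all higher. These LM3 splits depend on the scaling: under median-of-ratios scaling 9 cytosolic forms were higher and 2 lower and 8 mitochondrial forms higher and 3 lower, with an equal sum of listed values 7 and 6, and 4 and 5. In HepG2, quantile normalization left 9 cytosolic forms higher and 1 lower.

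The median log2 fold change of the cytosolic forms was 0.32 in HepG2 and 0.08 in LM3. That of the mitochondrial forms was 0.23 and 0.19, and that of the scaffold genes 0.57 and 0.47. The same median over all tested genes was 0.10 in HepG2 and -0.06 in LM3. Median-of-ratios scaling moved the median of all genes in LM3 by 0.11, to 0.05, and under it 20 of the genes were called higher and 5 lower in LM3. When libraries were instead scaled to an equal sum of listed values, LM3 had 14 higher and 11 lower and its cytosolic median was -0.04. Of all called genes in LM3, 43.8% were higher as deposited, 53.1% under median-of-ratios scaling and 33.1% with an equal sum. The sums of listed values in LM3 ran from 346884 to 348573 with siFASRL and from 316534 to 321859 with siNC, so small LM3 effects depend on the scaling.

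Few of the genes changed by a large amount. A threshold of adjusted p under 0.05 and a log2 fold change no smaller than 1 in either direction was met by 2 genes in HepG2, KARS upward and IARS2 downward, where 10.4% of tested genes met it. In LM3 it was met by IARS2 alone, against 7.62% of tested genes, and by none of them under median-of-ratios scaling, where IARS2 came to -0.99 (limma adjusted p = 1.91e-06, with 25 genes called at the adjusted p alone). The siFASRL and siNC values did not overlap for 31 of the 33 genes in HepG2 and for 26 in LM3, beside 89.6% and 80.1% of all tested genes.

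**Figure D2:**
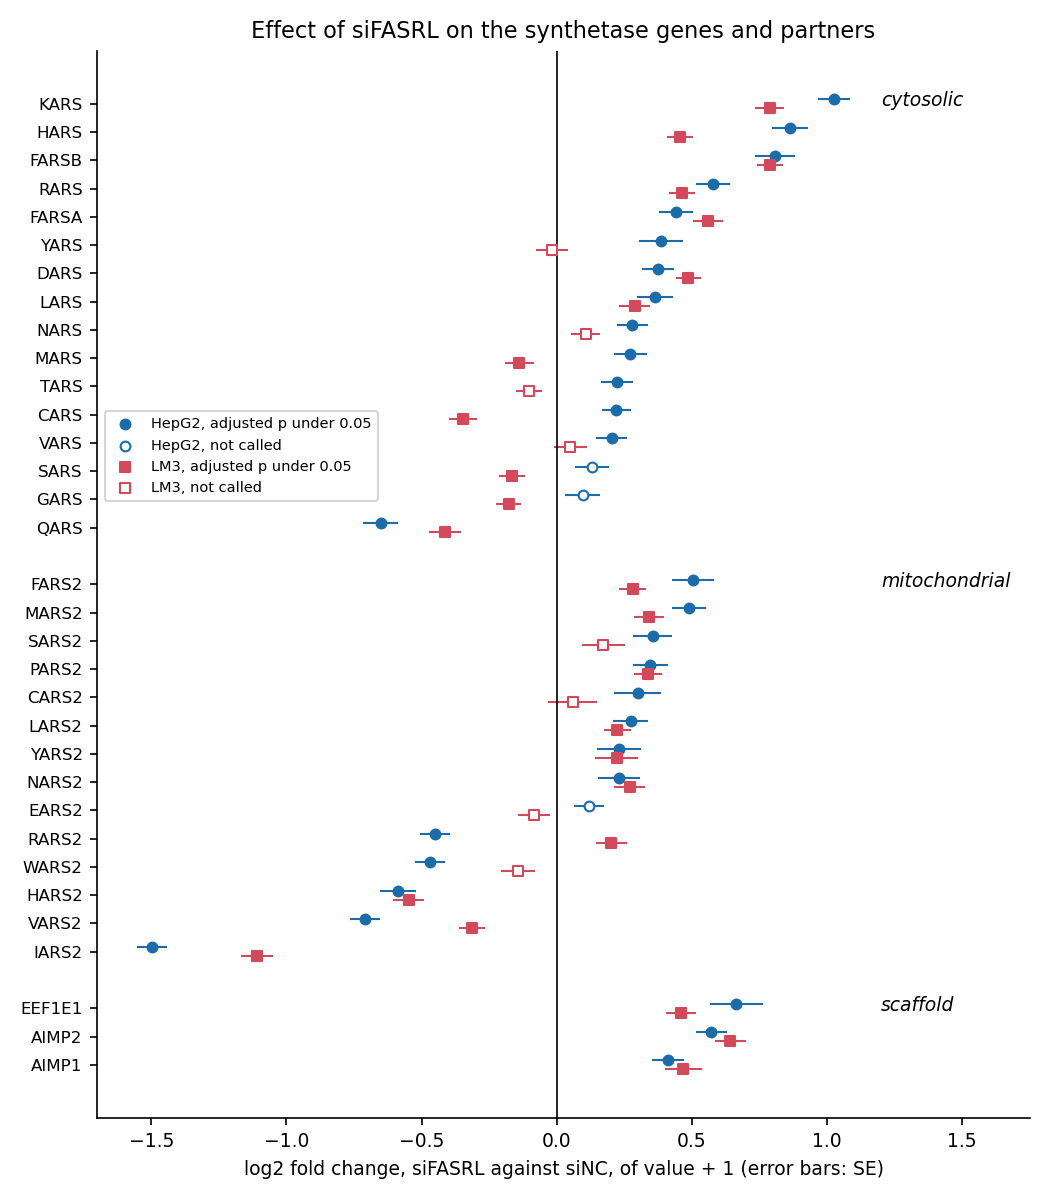
Log2 fold change of value + 1 (siFASRL against siNC, with SE from limma, 3 libraries a group) for the 33 genes in HepG2 (blue circles) and LM3 (red squares), filled where adjusted p was under 0.05. Most points lie to the right of 0, IARS2 lies farthest to the left in both lines, and the 3 scaffold genes lie to the right in both.

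IARS2 (gene ID 55699, plus strand, chr1:220094102-220148041 in GENCODE v29 on GRCh38) showed the widest decrease of all 33 genes in either line. In HepG2 its values were 28.4, 27.6 and 27.6 with siFASRL and 78.6, 83.8 and 79.2 with siNC, so that the siFASRL mean was 34.6% of the siNC mean (log2 fold change -1.50, SE 0.054, limma adjusted p = 3.72e-08). In LM3 they were 33.2, 36.9 and 37.4 against 77.3, 81.0 and 76.9, or 45.7% of the siNC mean (-1.11, SE 0.060, adjusted p = 1.32e-06). All 6 siFASRL libraries lay far below all 6 siNC libraries. The decrease was smaller in LM3, with a difference of 0.39 between the lines (LM3 effect minus HepG2 effect, interaction adjusted p = 0.00102). From the most abundant mitochondrial form under siNC, IARS2 moved below CARS2, the mitochondrial cysteinyl-tRNA synthetase, which stood at 46.2 in HepG2 and 46.8 in LM3 with siFASRL. The cytosolic isoleucyl-tRNA synthetase IARS was not analysed here.

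KARS (gene ID 3735, minus strand, chr16:75627474-75648643), which makes both lysyl-tRNA synthetases, showed the widest increase in HepG2. Its values there were 131, 131 and 128 with siFASRL and 59.7, 64.1 and 66.1 with siNC (205.1% of the siNC mean, log2 fold change 1.03, SE 0.058, limma adjusted p = 3.19e-07). In LM3 they were 155, 156 and 159 against 85.7, 92.1 and 93.6 (0.79, SE 0.053, adjusted p = 3.42e-06). The groups did not overlap in either line, and KARS became the most abundant of the 33 genes with siFASRL in both, at means of 129.8 and 156.8. The log2 fold change of KARS in HepG2 was under 1 without siNC replicate 1 (0.98), under quantile normalization (0.87) and with an equal sum of listed values (0.96), which left 1 gene past the fold change threshold. GENCODE v29 lists 3 pseudogenes of KARS, whose reads the authors' counting may have shared with it.

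GARS, the other gene that makes both enzymes, did not move with KARS. Its HepG2 values were 88.9, 81.5 and 81.8 with siFASRL and 79.6, 74.2 and 82.1 with siNC, which overlap (log2 fold change 0.10, SE 0.063, adjusted p = 0.174). In LM3 it was lower, at 92.6, 91.3 and 91.0 against 106, 102 and 103 (-0.18, SE 0.047, adjusted p = 0.00766). The LM3 call was lost under median-of-ratios scaling (-0.06, adjusted p = 0.272). Relative to the median of all genes the LM3 effect was -0.12 as deposited and -0.11 with that scaling.

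Among the other cytosolic enzymes, HARS and FARSB rose most in HepG2. HARS, the histidyl-tRNA synthetase, stood at 43.3, 39.8 and 39.1 with siFASRL in HepG2 and at 22.5, 20.5 and 22.9 with siNC (0.86, SE 0.065, limma adjusted p = 1.79e-06). In LM3 it stood at 40.4, 40.6 and 42.5 against 29.9, 30.1 and 29.3 (0.46, SE 0.049, adjusted p = 4.21e-05). The increase was smaller in LM3 by 0.41 (interaction adjusted p = 0.000852), and the siFASRL levels of the lines met near 41. FARSB, the beta subunit of phenylalanyl-tRNA synthetase, rose by nearly the same amount in both lines. It had 82.8, 83.5 and 84.4 against 48.8, 42.4 and 51.3 in HepG2 (0.81, SE 0.073, adjusted p = 5.48e-06) and 61.8, 61.9 and 63.4 against 36.6, 35.8 and 34.7 in LM3 (0.79, SE 0.048, adjusted p = 2.22e-06). Its partner subunit FARSA also rose in both lines, by 0.44 and 0.56. No difference between the lines was called for FARSB (-0.02, SE 0.087, interaction adjusted p = 0.872).

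QARS, the glutaminyl-tRNA synthetase of the multisynthetase complex, was the one cytosolic form called lower in both lines. Its HepG2 values were 58.2, 54.5 and 54.8 with siFASRL and 81.9, 93.5 and 89.6 with siNC (63.2% of the siNC mean, -0.65, SE 0.065, limma adjusted p = 1.03e-05). In LM3 they were 65.4, 69.1 and 64.8 against 83.0, 91.2 and 92.4 (74.8%, -0.41, SE 0.060, adjusted p = 0.000255). The siNC levels of QARS were alike in the lines, with means of 88.3 and 88.9.

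Of the 9 listed members of the complex (6 enzymes and 3 scaffold genes), 8 were higher and QARS lower in HepG2, and 7 were higher in LM3, where QARS and MARS were lower. Over all tested genes 44.8% were higher and 44.3% lower in HepG2, and 33.9% and 43.5% in LM3. DARS, LARS and RARS, the enzymes for aspartate, leucine and arginine, were higher in both lines, with log2 fold changes of 0.37, 0.36 and 0.58 in HepG2 and 0.49, 0.29 and 0.46 in LM3. The median over the 9 was 0.41 in HepG2 and 0.46 in LM3. The 10 cytosolic forms outside the complex had medians of 0.25 and 0.02. In HepG2, 8 of these 10 were higher and none lower at an adjusted p under 0.05, whereas in LM3 3 were higher and 3 lower, beside the same shares of all tested genes. Under median-of-ratios scaling 5 of the 10 were higher and 1 lower in LM3, as GARS and SARS (-0.05, adjusted p = 0.39) lost their calls and NARS and VARS (0.17, adjusted p = 0.0289) gained one. In HepG2, 5 were higher under quantile normalization, 9 in the joint fit and 10 with the HepG2 ratios shifted, where SARS gained a call (adjusted p = 0.0314 in the joint fit and 0.00391 with the shift). Neither the complex nor the forms outside it were tested as a set.

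The 3 scaffold genes were higher in both lines. AIMP1 had 25.4, 27.1 and 26.1 with siFASRL in HepG2 against 19.3, 18.5 and 20.5 with siNC (0.41, SE 0.059, limma adjusted p = 0.000114), and 28.1, 29.4 and 30.6 in LM3 against 22.7, 21.0 and 19.2 (0.47, SE 0.068, adjusted p = 0.000274). AIMP2, which binds several of the enzymes, had 52.3, 56.3 and 53.5 in HepG2 against 34.8, 35.4 and 37.8 (0.57, SE 0.059, adjusted p = 1.2e-05), and 96.5, 99.6 and 99.4 in LM3 against 58.9, 66.4 and 63.2 (0.64, SE 0.058, adjusted p = 1.55e-05). EEF1E1 had 55.2, 63.7 and 62.1 in HepG2 against 39.6, 32.2 and 41.7 (0.66, SE 0.097, adjusted p = 0.00013), and 25.7, 25.9 and 27.9 in LM3 against 19.14, 19.4 and 18.4 (0.46, SE 0.054, adjusted p = 7.69e-05). The siFASRL and siNC values of all 3 were apart in both lines. No difference between the lines was called for any of them (interaction adjusted p = 0.639, 0.495 and 0.182, with SE of 0.089, 0.078 and 0.12 on differences of 0.05, 0.07 and -0.20). That of EEF1E1 was called with the HepG2 ratios shifted (-0.32, adjusted p = 0.0379).

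**Figure D3:**
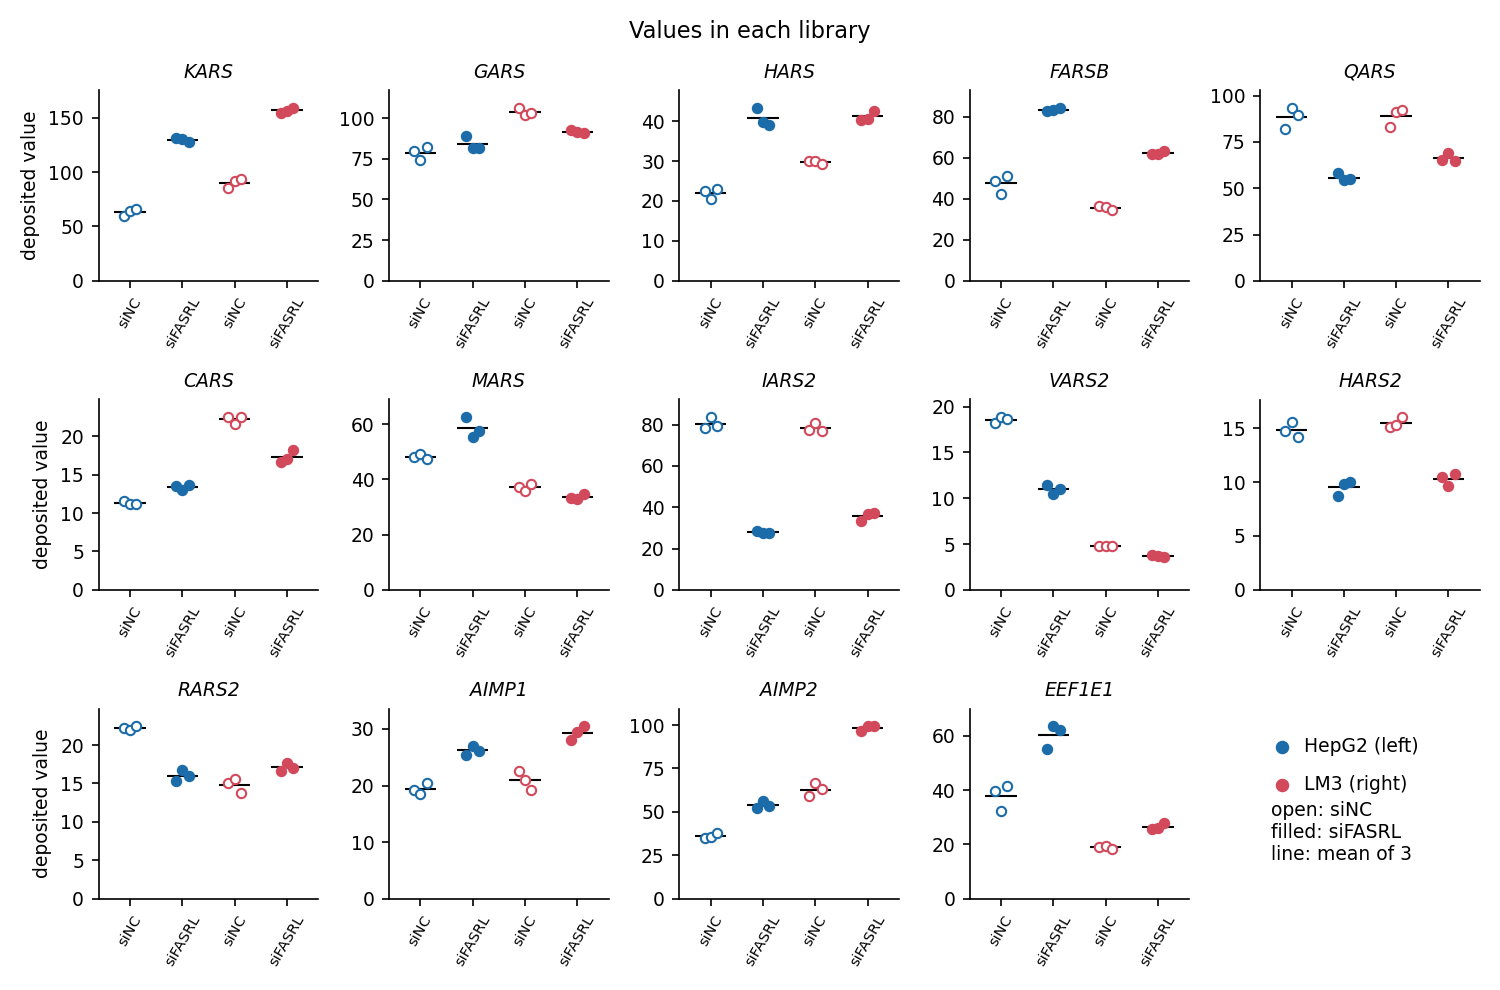
Deposited value in each library for the 14 genes named by rule, with open points for siNC, filled points for siFASRL, HepG2 in blue on the left, LM3 in red on the right, and a line at the mean of 3. Each vertical axis starts at 0; KARS rises to means of 129.8 and 156.8, IARS2 falls to 27.9 and 35.8, and RARS2, CARS and MARS move in opposite directions in the lines.

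Of the mitochondrial forms, FARS2, LARS2, MARS2, NARS2, PARS2 and YARS2 were higher in both lines, by 0.23 to 0.50 in HepG2 and 0.22 to 0.34 in LM3. YARS2 was the least stable of these, with limma adjusted p = 0.0228 in HepG2 and 0.0302 in LM3, and lost its call in HepG2 without siFASRL replicate 2 or 3 or siNC replicate 2 or 3 (adjusted p from 0.051 to 0.0947) and in LM3 without siFASRL replicate 2 or 3 or siNC replicate 1 (0.0507 to 0.117). With an equal sum of listed values YARS2 lost both calls (0.17, adjusted p = 0.0676, in HepG2 and 0.11, adjusted p = 0.22, in LM3), and without a filter the one in LM3 (adjusted p = 0.0577). NARS2 lost its HepG2 call without siFASRL replicate 3 (0.0719) or siNC replicate 2 (0.0506) and with an equal sum (0.0604). LARS2 lost its LM3 call with an equal sum (0.11, adjusted p = 0.07). CARS2 and SARS2 were called higher in HepG2 only, and no difference between the lines was called for either (interaction adjusted p = 0.169 and 0.199). With the HepG2 ratios shifted both differences were called (-0.36, adjusted p = 0.0423, and -0.30, adjusted p = 0.0398), and that of CARS2 also without LM3 siNC replicate 1 (-0.35, adjusted p = 0.0241). SARS2 was called higher in LM3 as well under median-of-ratios scaling (0.28, adjusted p = 0.00925), under quantile normalization (adjusted p = 0.0211) and without siNC replicate 3 (adjusted p = 0.00657). CARS2 lost its HepG2 call under quantile normalization (0.20, adjusted p = 0.0514). EARS2, the glutamyl-tRNA synthetase of mitochondria, was called in neither line (0.12 and -0.08). It was called higher in HepG2 under quantile normalization (adjusted p = 0.0022), in the joint fit (0.0499) and with the HepG2 ratios shifted (0.0034), and lower in LM3 with an equal sum (0.0179).

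The mitochondrial forms that fell were IARS2, VARS2, HARS2, WARS2 and RARS2 in HepG2, and IARS2, VARS2 and HARS2 in LM3. VARS2, the valine enzyme, had 11.5, 10.4 and 11.05 with siFASRL in HepG2 and 18.2, 18.9 and 18.7 with siNC (59.1% of the siNC mean, -0.71, SE 0.056, limma adjusted p = 2.38e-06). In LM3, where it was much lower already, it had 3.76, 3.73 and 3.54 against 4.80, 4.81 and 4.82 (76.4%, -0.31, SE 0.047, adjusted p = 0.000347). The LM3 call was lost under quantile normalization (-0.02, adjusted p = 0.675). In GENCODE v29, 1858 of 8448 exonic bases of VARS2 are shared with GTF2H4 on the same strand, so reads there could belong to either gene. WARS2, the tryptophan enzyme, fell in HepG2 (-0.47, SE 0.054, adjusted p = 2.63e-05) and was not called in LM3 (-0.14, SE 0.064, adjusted p = 0.0675), with a called difference of 0.33 between the lines (interaction adjusted p = 0.00436). In LM3, WARS2 was called lower in the joint fit (adjusted p = 0.0339), with an equal sum (-0.26, adjusted p = 0.00451) and without siNC replicate 1 (-0.20, adjusted p = 0.0037).

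HARS2, the mitochondrial histidyl-tRNA synthetase, fell in both lines while HARS rose. It had 8.75, 9.84 and 10.03 with siFASRL in HepG2 against 14.7, 15.6 and 14.2 with siNC (64.3% of the siNC mean, -0.59, SE 0.066, limma adjusted p = 2.3e-05), and 10.5, 9.62 and 10.8 in LM3 against 15.11, 15.3 and 16.07 (66.4%, -0.55, SE 0.058, adjusted p = 3.9e-05). HARS (gene ID 3035) and HARS2 (gene ID 23438) lie head to head on chromosome 5. HARS is read from the minus strand and HARS2 from the plus strand, and their RefSeq start sites on GRCh38.p14, at 140691370 and 140691455, leave 84 bases between them. The interval is shown because transcripts leave it in both directions and their levels moved apart. It is written on the plus strand from chr5:140691350-140691475, with the stretch from one start site to the other in capitals and 20 bases on each side in lower case.
HARS and HARS2: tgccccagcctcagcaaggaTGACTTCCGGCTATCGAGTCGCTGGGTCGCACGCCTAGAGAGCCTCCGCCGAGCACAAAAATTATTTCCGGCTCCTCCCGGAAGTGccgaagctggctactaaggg
Its GC content is 60.3%, beside 57.5% over all RefSeq promoter windows of 300 bases and 61.0% over those of the members. In GENCODE v29, whose longest transcripts start farther out, 437 exonic bases are common to HARS and HARS2 on opposite strands, 5.56% of those of HARS and 11.7% of those of HARS2. Whether the authors' counting used strand is not stated, so reads from those bases cannot be told apart. WDR55, which shares 221 exonic bases with HARS on the opposite strand, also fell (-0.61 in HepG2, -0.52 in LM3).

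Start sites of other genes lie close to those of several members on the opposite strand. Within 1000 bases of a member's start, head to head, the listed neighbours were TBCK beside AIMP1, LYRM4 beside FARS2 and MRPS12 beside SARS2. The HARS pair comes in addition. For AIMP1 only the RefSeq start at 106316550 is head to head with TBCK. Its other starts, at 106315544 and 106315935, lie on the other side of the TBCK start at 106316209. TBCK fell (-0.65 in HepG2, limma adjusted p = 2.43e-06, and -0.21 in LM3, adjusted p = 0.0266) where AIMP1 rose, and the 2 genes share 387 exonic bases on opposite strands, 11.6% of those of AIMP1. LYRM4 was higher in HepG2 (0.32, adjusted p = 0.000542) and not called in LM3 (0.04, adjusted p = 0.46). MRPS12, a protein of the mitochondrial ribosome, rose in both lines (0.53 and 0.48) and shares 349 exonic bases with SARS2 on the opposite strand, 10.8% of those of SARS2. SARS2 also shares 1492 of its 3231 exonic bases, 46.2%, with AC011455.2 on its own strand. AIMP2 shares 532 of its 1838 exonic bases, 28.9%, with EIF2AK1 on the opposite strand, and EIF2AK1, the heme-regulated kinase of eIF2 alpha, fell by 0.78 in HepG2 and by 0.55 in LM3. In all, 17 of the 33 genes share exonic bases with a gene on the opposite strand, and 10 have a pseudogene named after them.

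RARS2, CARS and MARS were called in opposite directions in the lines. RARS2 (gene ID 57038, minus strand, chr6:87514378-87590003), the mitochondrial arginyl-tRNA synthetase, had 15.3, 16.7 and 15.97 with siFASRL in HepG2 and 22.2, 21.98 and 22.5 with siNC (-0.45, SE 0.055, limma adjusted p = 4.01e-05). In LM3 it had 16.7, 17.7 and 17.05 against 15.0, 15.6 and 13.8 (0.20, SE 0.059, adjusted p = 0.012). The effects differed by 0.65 (interaction adjusted p = 1.45e-05). The groups were apart in each line, and the levels of the lines, far apart under siNC, were near 16 and 17 with siFASRL. The LM3 call was lost without siFASRL replicate 2 (adjusted p = 0.0515) and with an equal sum of listed values (0.09, adjusted p = 0.209), while the HepG2 call was kept under every alternative tried.

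CARS (gene ID 833), the cytosolic cysteinyl-tRNA synthetase, rose in HepG2 and fell in LM3. It had 13.5, 13.0 and 13.6 with siFASRL in HepG2 against 11.5, 11.2 and 11.2 with siNC (0.22, SE 0.053, limma adjusted p = 0.00285), and 16.6, 17.0 and 18.2 in LM3 against 22.5, 21.6 and 22.5 (-0.35, SE 0.053, adjusted p = 0.000381). The difference of -0.57 was called (interaction adjusted p = 1.71e-05). Relative to the median of all genes, the effects were 0.12 in HepG2 and -0.29 in LM3. MARS, the methionyl-tRNA synthetase, had 62.6, 55.2 and 57.6 in HepG2 against 47.9, 49.3 and 47.5 (0.27, SE 0.062, adjusted p = 0.00214), and 33.4, 32.7 and 34.6 in LM3 against 37.3, 35.6 and 38.3 (-0.14, SE 0.052, adjusted p = 0.0378), differing by -0.41 (interaction adjusted p = 0.000713). The LM3 call of MARS was lost under median-of-ratios scaling (-0.02, adjusted p = 0.71) and without siFASRL replicate 1 or 2 or siNC replicate 3 (adjusted p from 0.0954 to 0.131), and its HepG2 call under quantile normalization (0.14, adjusted p = 0.0526). In GENCODE v29, 355 exonic bases of MARS are shared with DDIT3 on the opposite strand, and DDIT3 was higher in both lines (0.64 and 0.42).

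The effects of 14 of the 33 genes differed between the lines at an interaction adjusted p under 0.05, where 46.7% of 8285 tested genes did. Of these, 9 had the lower value in LM3 (CARS, EARS2, GARS, HARS, KARS, MARS, SARS, TARS and YARS), and 8 of the 9 are cytosolic or dual enzymes. The other 5, IARS2, QARS, RARS2, VARS2 and WARS2, had the higher value in LM3, and all but QARS are mitochondrial. Under median-of-ratios scaling 7 had the lower and 6 the higher value in LM3, while of all called genes the higher made up 52.7% (41.7% as deposited). With an equal sum of listed values it was 12 and 4 (33.6% of all called genes higher), and with the HepG2 ratios shifted so that their gap lay at 0 it was 17 and 4 (26% higher). By class, the lower side held 8 cytosolic and 1 mitochondrial form as deposited, 7 and 0 under median-of-ratios scaling, 10 and 2 with an equal sum, and 11 and 5 with the shift, which adds CARS2, FARS2, MARS2 and SARS2. The higher side held 4 mitochondrial forms in each. Under median-of-ratios scaling it also held QARS, as deposited, and DARS (0.18, adjusted p = 0.0421). Quantile normalization gave 8 with the lower and 6 with the higher value (49.3% of all called genes higher). The higher side there was 4 mitochondrial forms, QARS and DARS (0.25, adjusted p = 0.00874). Called in both lines in the same direction were 16 genes upward and 4 downward (QARS, HARS2, IARS2 and VARS2), beside 29.6% and 36.0% of the 7349 genes tested in both lines. Opposite calls were made for the 3 genes above, beside 5.31% of the genes.

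The ratio of the cytosolic to the mitochondrial form was then compared inside each library, as log2(cytosolic + 1) minus log2(mitochondrial + 1), over 11 pairs with both genes listed. The 2 pairs of phenylalanine share FARS2. With 3 libraries against 3 the two-sided exact permutation test cannot give a p below 0.1. In HepG2 the groups did not overlap for 4 pairs with all libraries in use, each moving toward the cytosolic form (HARS, RARS, VARS and FARSB). In LM3 they did not overlap for 9 pairs. Of these, 5 moved toward the cytosolic form (HARS, RARS, VARS, FARSA and FARSB) and 4 toward the mitochondrial form (CARS, MARS, NARS and SARS). For NARS the LM3 groups were barely apart, with ratios of 2.117 in siFASRL replicate 3 and 2.121 in siNC replicate 3. The counts depend on the setting: in HepG2 they were 5 with a pseudocount of 0.1, 6 under quantile normalization and 4 to 6 without any 1 library, and in LM3 8 under median-of-ratios scaling, quantile normalization or a minimum value of 5, 10 with a pseudocount of 0.1 or an equal sum, and 9 to 10 without any 1 library. Without siFASRL replicate 1 of HepG2, MARS over MARS2 and SARS over SARS2 no longer overlap, with the lower ratios under siFASRL. The same holds in HepG2 for MARS without siNC replicate 1, SARS without siNC replicate 2 and FARSA without siNC replicate 3. Higher ratios under siFASRL were gained by LARS and NARS without siFASRL replicate 3. NARS also gained one without siNC replicate 2, and LARS without siNC replicate 3. No share of non-overlapping ratios was computed for other genes, so whether 4 or 9 of 11 is unusual is not known.

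HARS over HARS2 changed most of the 11 in both lines. The mean ratio went from 0.54 (SD 0.14) under siNC to 1.99 (SD 0.17) with siFASRL in HepG2, a difference of 1.45 (exact p = 0.1). In LM3 it went from 0.90 (SD 0.06) to 1.90 (SD 0.06), a difference of 1.004 (exact p = 0.1). The ratio of RARS over RARS2 rose by 1.03 in HepG2 and by 0.26 in LM3, and that of VARS over VARS2 by 0.91 and 0.36, each with exact p = 0.1. In these 3 amino acids the HepG2 shift joined a higher cytosolic form to a lower mitochondrial form, though VARS lost its HepG2 call under quantile normalization (0.07, adjusted p = 0.258). CARS over CARS2 was the one pair with the mitochondrial form at the higher level, at -1.64 in HepG2 and -0.98 in LM3 under siNC, and the ratio in LM3 fell by 0.41 (exact p = 0.1). LARS over LARS2 moved by 0.09 in HepG2 (exact p = 0.2) and 0.06 in LM3 (exact p = 0.3), with overlapping groups.

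**Figure D4:**
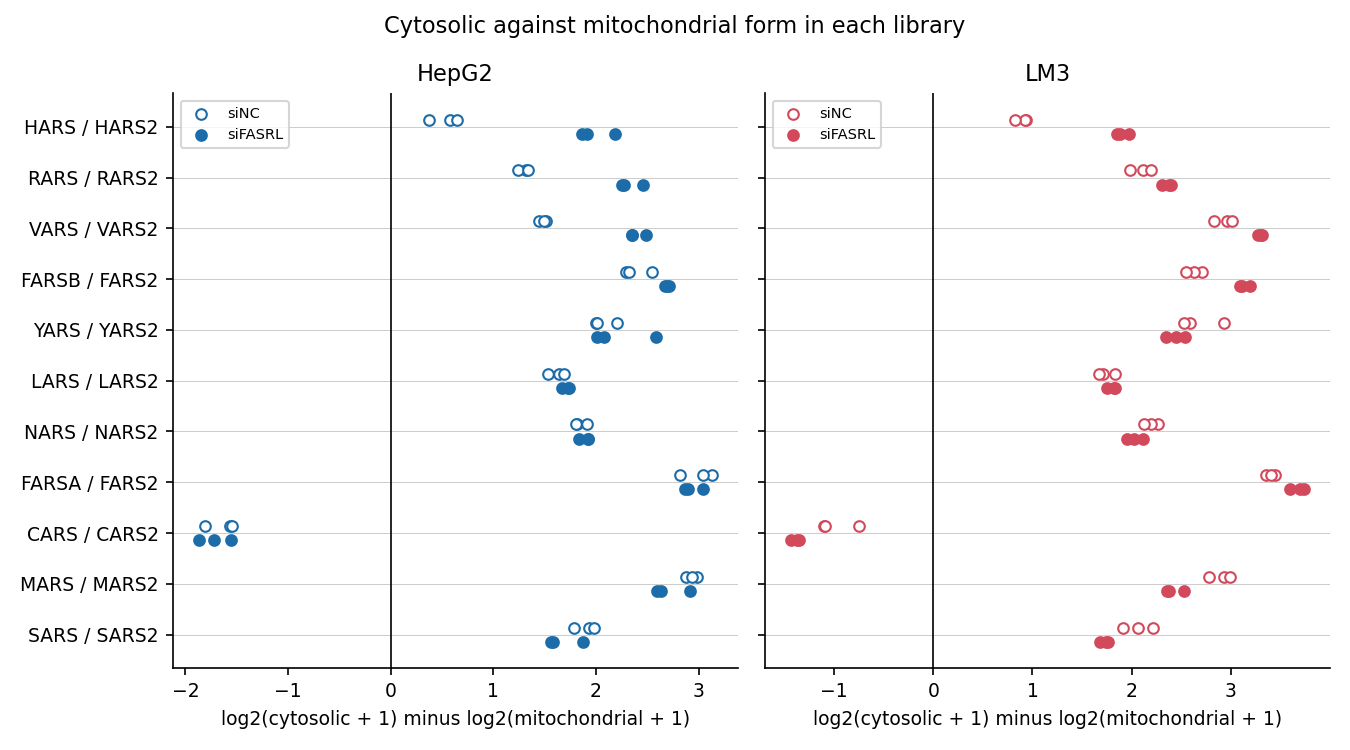
Log2(cytosolic + 1) minus log2(mitochondrial + 1) in each library for 11 pairs, with open points for siNC and filled points for siFASRL, HepG2 on the left and LM3 on the right. HARS over HARS2 shifts to the right in both lines (by 1.45 and 1.004), and CARS over CARS2 lies left of 0 in all libraries.

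Promoter sequences were available in RefSeq for 28 of the 33 members, in 39 windows from 250 bases before to 50 bases after a start site, on GRCh38.p14; DARS, LARS, VARS, VARS2 and YARS had no entry. The windows were searched on both strands for TGATGNAA, the core of the element that ATF4 binds with a C/EBP partner in the amino acid response. It was found in 6 of the 28 genes, namely CARS, GARS, MARS, NARS and TARS, 5 of 12 cytosolic genes with a window, and YARS2, 1 of 13 mitochondrial genes. It was found in none of the 3 scaffold genes with these letters. Over all 35116 windows 3.62% held it, and over the 7111 listed genes with a window 2.8%. A match describes the letters and does not show binding.

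In the cytosolic genes the match lay close to the start site, with its first base at position -33 in GARS, -4 in MARS, -2 in CARS, 2 in TARS and 14 in NARS. The matches of CARS and MARS, which moved in opposite directions in the lines, are shown with 11 bases on each side, in the direction of the gene and with the match in capitals. That of CARS is on the minus strand at chr11:3057407-3057436 and that of MARS on the plus strand at chr12:57488053-57488082.
CARS: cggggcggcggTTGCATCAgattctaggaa
MARS: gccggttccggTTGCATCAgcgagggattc
Both hold the motif in reverse. Among the 5 cytosolic genes with a match, 4 were called higher in HepG2 and GARS was not called, beside 13 of all 16 cytosolic forms and 44.8% of all tested genes. Under quantile normalization TARS (0.06, adjusted p = 0.314), NARS (0.12, adjusted p = 0.0675) and MARS (adjusted p = 0.0526) lost the HepG2 call, and with the HepG2 ratios shifted GARS gained one (0.21, adjusted p = 0.00875). In LM3, CARS, GARS and MARS were called lower, the last of these and GARS not under median-of-ratios scaling, and NARS and TARS were not called (0.11, SE 0.054, and -0.10, SE 0.048). Of all 16 cytosolic forms 5 were lower and 7 higher in LM3, and of all tested genes 43.5% and 33.9%. NARS was called higher in LM3 under median-of-ratios scaling (0.22, adjusted p = 0.0051) and without siNC replicate 1 (adjusted p = 0.022). TARS was called lower there under quantile normalization (-0.23, adjusted p = 0.00287), with an equal sum (-0.22, adjusted p = 0.00374) and without a filter (adjusted p = 0.0282). KARS, HARS and FARSB, the genes with the widest increases in HepG2, had no match in their windows.

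The genes around the synthetases were described from lists of related functions. For each list, only the 2 widest called changes per direction in each line are named. A gene named for a single line may therefore have changed in the other line as well. Of 78 genes that process, export or modify tRNA, 55 were tested, of which 41 were higher and 8 lower in HepG2, and 43 higher and 5 lower in LM3. Over all tested genes it was 44.8% and 44.3% in HepG2 and 33.9% and 43.5% in LM3. The medians of the list were 0.32 and 0.39. TRMT1, a tRNA guanosine methyltransferase, averaged 37.7 ± 0.88 with siFASRL against 18.0 ± 1.64 with siNC in HepG2 (mean ± SD of 3 libraries) and 43.1 ± 1.96 against 22.2 ± 1.97 in LM3, increases of 1.03 and 0.93 in log2. ALKBH8, which modifies the wobble uridine, rose in HepG2 by 1.22, and RPP21, a subunit of RNase P, rose in LM3 by 0.88. TRMT112, the partner of several methyltransferases, fell in both lines (-0.74 and -0.62). NAT10, an RNA cytidine acetyltransferase, fell in HepG2 (-0.76), and TYW1 fell in LM3 (-0.43).

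Of the elongation and termination factors of the cytosol, 13 of 22 were tested, with 10 higher and 2 lower in HepG2 and 11 higher and 1 lower in LM3. DPH2, an enzyme of the diphthamide modification of elongation factor 2, rose by 0.88 and 0.83, DPH3 rose in HepG2 by 0.95, and DPH5 rose in LM3 by 0.69. EEF2K, the kinase of elongation factor 2, fell in both lines (-0.86 and -0.70), and EEF1A2 fell in HepG2 (-0.82). Of 32 mitochondrial translation factors and tRNA modifiers, 21 were tested, with 12 higher and 5 lower in HepG2 and 11 higher and 5 lower in LM3. The shares of all tested genes beside both lists are 44.8% higher and 44.3% lower in HepG2 and 33.9% and 43.5% in LM3. SLIRP, which binds mitochondrial mRNA, rose by 0.63 and 0.67, PTCD1 rose in HepG2 by 0.54, and MTIF2, the initiation factor, rose in LM3 by 0.53. GFM2, the recycling factor, fell in both lines (-0.58 and -0.60), NSUN3 fell in HepG2 (-0.50) and TSFM fell in LM3 (-0.55).

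Of 39 genes of the amino acid response, 27 were listed. In HepG2, 13 of 27 tested were higher and 13 lower, and in LM3 8 of 26 were higher and 14 lower, with medians of 0.11 and -0.33. The shares were 48.1% higher and 48.1% lower in HepG2, beside 44.8% and 44.3% of all tested genes. In LM3 they were 30.8% and 53.8%, beside 33.9% and 43.5%. The medians of all tested genes were 0.10 and -0.06. The fold change threshold was passed by 5 genes upward and 1 downward in HepG2, and by 3 and 5 in LM3. Of all tested genes, 10.4% passed it in HepG2 and 7.62% in LM3. The list was not tested as a set. As in the lists above, a gene named below for a single line may also have changed in the other. PPP1R15A, which directs the dephosphorylation of eIF2 alpha, averaged 48.5 ± 4.28 with siFASRL against 13.5 ± 0.93 with siNC in HepG2 (mean ± SD of 3 libraries) and 34.7 ± 2.40 against 9.16 ± 0.95 in LM3, which are increases of 1.77 and 1.82. SLC7A1, a carrier of cationic amino acids, rose in HepG2 by 1.12, and ATF3 rose in LM3 by 1.54. PHGDH, the first enzyme of serine synthesis, fell in HepG2 (-1.15). SLC6A9, a glycine carrier, fell in both lines (-0.89 and -1.29), and SESN2 fell in LM3 (-1.22). XPOT, which exports tRNA from the nucleus, stands in both this list and that of tRNA processing.

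**Figure D5:**
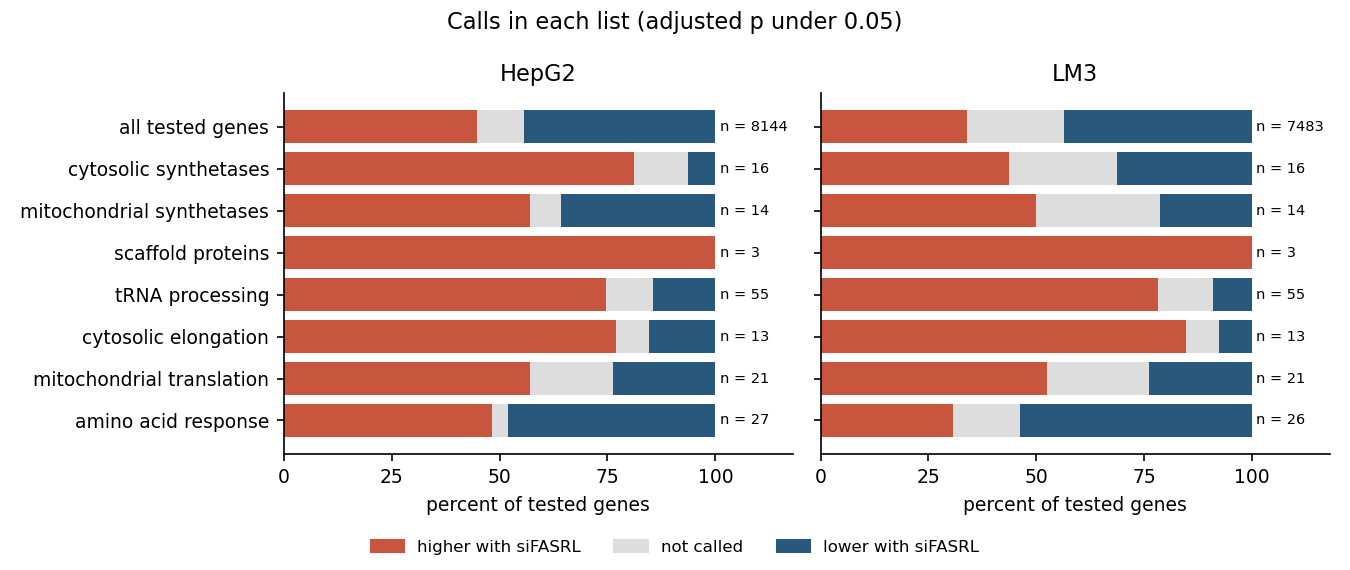
Percent of tested genes called higher (red), not called (grey) and called lower (blue) with siFASRL at a limma adjusted p under 0.05, for all tested genes and for each list, in HepG2 and LM3, with the number tested at the right. Scaffold genes are all in red in both lines, and the tRNA processing list has more red than all tested genes in both (41 and 43 of 55 genes).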

How the data were processed

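RNA-seq libraries of HepG2 and LM3 cells with siFASRL or siNC (3 replicates each) were sequenced on a BGISEQ platform after oligo(dT) selection. The authors' tools were SOAPnuke for cleaning reads, HISAT2 (genome) and Bowtie2 (coding genes) for alignment, and RSEM for the value of each gene. The deposited signal is this normalised expression value with 2 decimals, and whether it is FPKM or TPM is not stated. The submitters' notes name hg19, but the 24 chromosome accessions in the tables are those of GRCh38. Depth is unknown, since the values are not counts, and precision was taken from the replicates. One table repeats the 6 LM3 columns with identical values, which were used once. The symbols of 17 genes turned into dates were restored from gene IDs.

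Groups were taken from the labels. limma (3.58.1, R 4.3.3) was fitted to log2(value + 1) in each line for genes reaching 1 in 3 or more libraries, and with an interaction over all 12 libraries. All 33 members passed in both lines. The fit was checked on simulated data. Alternatives were the pseudocount, filter, scaling, replicate block, joint fit, limma-trend and leaving out each library; an equal sum of listed values and a shift of HepG2 were added after the data were seen. The members and lists were chosen with earlier results of these data known. Values in each library were given for the scaffold genes, GARS and KARS, the 3 widest called changes per direction and line, genes past the fold change threshold, and genes called in opposite directions or with an interaction of at least 0.5. Neighbouring lists were represented by the 2 widest called changes per direction and line. Promoter sequences are from RefSeq (GRCh38.p14) and gene positions from GENCODE v29. Tables were read with pandas (2.3.3) and figures drawn with matplotlib (3.10.9) in Python (3.11.15).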

Additional observations from a re-analysis of the deposited data

Results flagged for a closer look

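The effect of siFASRL differed between HepG2 and LM3 for 14 of the 33 genes, by the limma interaction over 12 libraries. Of all 8285 tested genes, 46.7% differed. Values are the LM3 effect minus the HepG2 effect on the log2 scale. Positive differences were found for RARS2 (0.65), VARS2 (0.40), IARS2 (0.39), WARS2 (0.33) and QARS (0.24). Negative differences were found for CARS (-0.57), MARS (-0.41), HARS (-0.41), YARS (-0.40), TARS (-0.32), SARS (-0.29), GARS (-0.27), KARS (-0.24) and EARS2 (-0.20). QARS lost the call with a pseudocount of 0.1 (adjusted p = 0.0503), without HepG2 siFASRL replicate 2 or 3, HepG2 siNC replicate 2 or 3, LM3 siFASRL replicate 1 or 2 or LM3 siNC replicate 1 (adjusted p from 0.056 to 0.0937), with an equal sum of listed values (0.18, adjusted p = 0.0958) and with the HepG2 gap shifted to 0 (0.12, adjusted p = 0.263). EARS2 lost it without HepG2 siFASRL replicate 1 or 3, HepG2 siNC replicate 1 or 3, any LM3 siFASRL replicate or LM3 siNC replicate 1 or 3 (0.0545 to 0.0965), under median-of-ratios scaling (-0.14, adjusted p = 0.159) and under quantile normalization (-0.18, adjusted p = 0.0859). KARS lost it under median-of-ratios scaling (-0.17, adjusted p = 0.0774) and quantile normalization (-0.16, adjusted p = 0.0938).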

How the results depend on the processing

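No called effect of a gene changed sign under any alternative tried. Of the 33 genes, 23 in HepG2 and 20 in LM3 kept their call or lack of one under every alternative in which they were tested (PARS2 in HepG2 and VARS2 in LM3 were not tested at a minimum value of 5), as did 21 of the differences between the lines. Without any 1 library, the number of genes past the fold change threshold in HepG2 ran from 1 to 2, the median of the mitochondrial forms from 0.192 to 0.253 in HepG2 and from 0.127 to 0.192 in LM3, and the scaffold median in LM3 from 0.438 to 0.523. Under median-of-ratios scaling, 5 genes were called lower in LM3 (8 as deposited), 0 passed the fold change threshold there (1), and the LM3 medians were 0.195 for cytosolic, 0.299 for mitochondrial and 0.582 for scaffold genes. Of all tested genes in LM3, 37% were then lower (43.5% as deposited) and 42% higher (33.9%). Under quantile normalization, 1 gene passed the fold change threshold in HepG2 (2), the HepG2 medians were 0.266 for cytosolic and 0.465 for scaffold genes, and the LM3 medians -0.015 for cytosolic and 0.277 for mitochondrial genes. With an equal sum of listed values, 1 gene passed the threshold in HepG2, and the cytosolic, mitochondrial and scaffold medians were 0.257, 0.169 and 0.509 in HepG2 and -0.04, 0.074 and 0.352 in LM3. With the HepG2 siFASRL values raised so that the centre of the gap in the HepG2 ratios lay at 0, the HepG2 medians were 0.439, 0.344 and 0.69. These last 2 settings were chosen after seeing the data.

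Same-numbered libraries were not paired in the main fit. Their deviations from the group means correlated at 0.319, 0.371 and -0.2 in HepG2 and at -0.08, 0.118 and -0.175 in LM3. Libraries of unlike number correlated from -0.46 to 0.297 in HepG2 and from -0.124 to 0.187 in LM3. These values do not settle whether same-numbered libraries belong together. With a replicate block, 24 genes were higher and 6 lower in HepG2, as without it, and 17 higher and 7 lower in LM3, where MARS lost its call (adjusted p = 0.0578). Over all tested genes the block gave 46% higher and 44.4% lower in HepG2, and 33.1% and 42.9% in LM3. The block left 12 of the 14 differences between the lines, without EARS2 (adjusted p = 0.069) and QARS (0.0644). The pair ratios use no model, so the block, joint fit and limma-trend give no value for them. Depth is unknown, which leaves no counting error to set beside the low values of VARS2, PARS2 or MARS2.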
